A study of Homo sapiens with 4 samples.

Results

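The 37 genes described here belong to the antioxidant system that the transcription factor NRF2 controls, together with the main antioxidant enzymes of the cytosol, the mitochondria and other compartments. They were chosen by gene symbol, and all 37 were found among the 39261 genes of the deposited tables. They comprise 2 regulators, 21 cytosolic NRF2 targets, 5 mitochondrial enzymes and 9 other antioxidant enzymes. RNA-seq libraries came from lentivirus-treated human breast cancer cell lines. MDA-MB-231, a mesenchymal line without hormone receptors, was sequenced with TMEM126A knockdown and with its control vector. Ca1a, a tumour-forming descendant of the mammary epithelial line MCF10A, was sequenced with TMEM126A overexpression and with its control vector. TMEM126A is located in the mitochondrial inner membrane and is known for a role in assembling respiratory complex I. Each of the 4 groups is 1 library, and replicate error could not be estimated for any difference below. Whether the cultures were pools or single clones is not stated in the labels. The media also differed, L15 with FBS for MDA-MB-231 and DMEM/F12 with horse serum, hydrocortisone, EGF, insulin and cholera toxin for Ca1a.

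NRF2, encoded by NFE2L2, is held in the cytosol by KEAP1, which presents it to a CUL3 ubiquitin ligase for destruction. When electrophiles or peroxides modify KEAP1, NRF2 escapes, pairs with small MAF proteins in the nucleus and binds antioxidant response elements before genes of glutathione synthesis, thioredoxin reduction, NADPH supply, iron storage and aldehyde reduction. Mitochondria hold a separate set, in which SOD2 turns the superoxide leaked by the respiratory chain into hydrogen peroxide, and PRDX3 and PRDX5 remove that peroxide with electrons from TXN2 and TXNRD2.

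The core of the antioxidant response element was searched as the letters TGAC, any 3 bases and GCA, on both strands, in RefSeq promoter windows of 300 bases (250 before and 50 after the transcript start, build GRCh38.p14). Windows were found for 28 of the 37 genes. HMOX1, FTH1, GSS, GSR, PRDX1, AKR1B10, TXN2, SOD1 and PRDX6 had none. The letters were present for 5 of the 28 genes, and for 3.94% of all 27305 genes with a window. The 5 matches are shown because NRF2 acts through this element, each 5′ to 3′ on the strand of its gene with the matching letters in capitals. Apart from GSTP1, whose match reads forward, they lie on the other strand, so the capitals read as the reverse complement.
GCLM: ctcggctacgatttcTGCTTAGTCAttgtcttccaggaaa
TXNRD1: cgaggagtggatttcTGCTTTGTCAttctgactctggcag
GPX2: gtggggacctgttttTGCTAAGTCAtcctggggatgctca
KEAP1: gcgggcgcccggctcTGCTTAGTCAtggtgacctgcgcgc
GSTP1: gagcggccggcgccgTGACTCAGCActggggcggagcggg
The windows printed are chr1:93909441-93909480 (minus strand) for GCLM, chr12:104286914-104286953 (plus) for TXNRD1, chr14:64942844-64942883 (minus) for GPX2, chr19:10502779-10502818 (minus) for KEAP1 and chr11:67583731-67583770 (plus) for GSTP1. The match stands 35 bases before a transcript start of GCLM, 103 before an internal start of TXNRD1, 123 before that of GPX2, 32 before that of KEAP1 and 66 before that of GSTP1. These are matches of letters in short windows and do not show binding.

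The libraries held 20673373 to 21405193 reads, and the 37 genes took 0.909% to 1.02% of them. TMEM126A followed the labels, at 22.9 normalized counts (reads over the size factor of their library) with knockdown against 559 with control vector, and at 9381 with overexpression against 265 with control vector. Among line markers VIM stood at 708 and 721 FPKM (fragments scaled to transcript length and library size) in the knockdown library and control of MDA-MB-231, with CDH1 at 0.332 and 0.203 FPKM, whereas CDH1 stood at 73.4 and 73.6 FPKM in the overexpression library and control of Ca1a. VIM in Ca1a was lower with overexpression, at 74.8 FPKM against 90.5 FPKM with control vector (ratio of normalized counts 0.832, 0.802 to 0.862). EPCAM and KRT17 had ratios of 1.05 (1.01 to 1.09) and 0.972 (0.955 to 0.988) there, and the part of these markers in the results below was not tested. Of 4 markers of other cell types, PTPRC, PECAM1, COL1A1 and ADIPOQ, each was under 2 FPKM in all 4 libraries, ADIPOQ was listed at 0 in each and PTPRC reached at most 0.0178 FPKM. The ratio of PECAM1 was 1.88 (95% counting interval 1.45 to 2.45) with knockdown and 1.66 (1.39 to 1.98) with overexpression, and its part in the results below was not tested. In such bulk RNA, fewer cells of a kind and less RNA per cell cannot be told apart. Over 10% of exonic bases are shared with another annotated gene for NFE2L2 (20.9%), NQO1 (17.7%), FTH1 (62.4%), SRXN1 (85.0%), PRDX1 (24.9%) and PRDX2 (14.1%), so their counts carry that uncertainty.

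The deposited FPKM first show how the control libraries of the 2 lines differ. The MDA-MB-231 control had far less mRNA for aldo-keto reductases, 3 of 4 NADPH enzymes and the catalytic subunit of glutathione synthesis than the Ca1a control, far more ferritin light chain, and more of the mitochondrial enzymes SOD2 and PRDX3. Of 21 NRF2 targets 20 reached 1 FPKM in either control. By a threshold of 2-fold on log2(FPKM + 1), 11 of these were lower in the MDA-MB-231 control, 2 were higher and 7 were within. Among those lower, AKR1B10, AKR1C1 and AKR1C2 reached 1 FPKM in the Ca1a control only, so they passed the filter through the control where they were high. Over all 12101 genes at that level, 11.3% were lower and 21.7% higher. At 10 FPKM or more in either control the targets had 10 of 19 lower and 2 higher, against 13.7% and 20.3% of 5873 genes. At that level GCLC, ME1, AKR1C1, AKR1C2 and AKR1C3 passed through the Ca1a control only, and HMOX1 through the MDA-MB-231 control only. The shares over all genes rest on the same filter. The median log2 difference was -1.11 for the targets and 0.26 over all genes. The mitochondrial enzymes had 2 of 5 higher, 0 lower and a median of 0.24. The lines also differ in culture medium, so line and medium cannot be told apart, and 1 library per line gives no error for these folds.

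**Figure D1:**
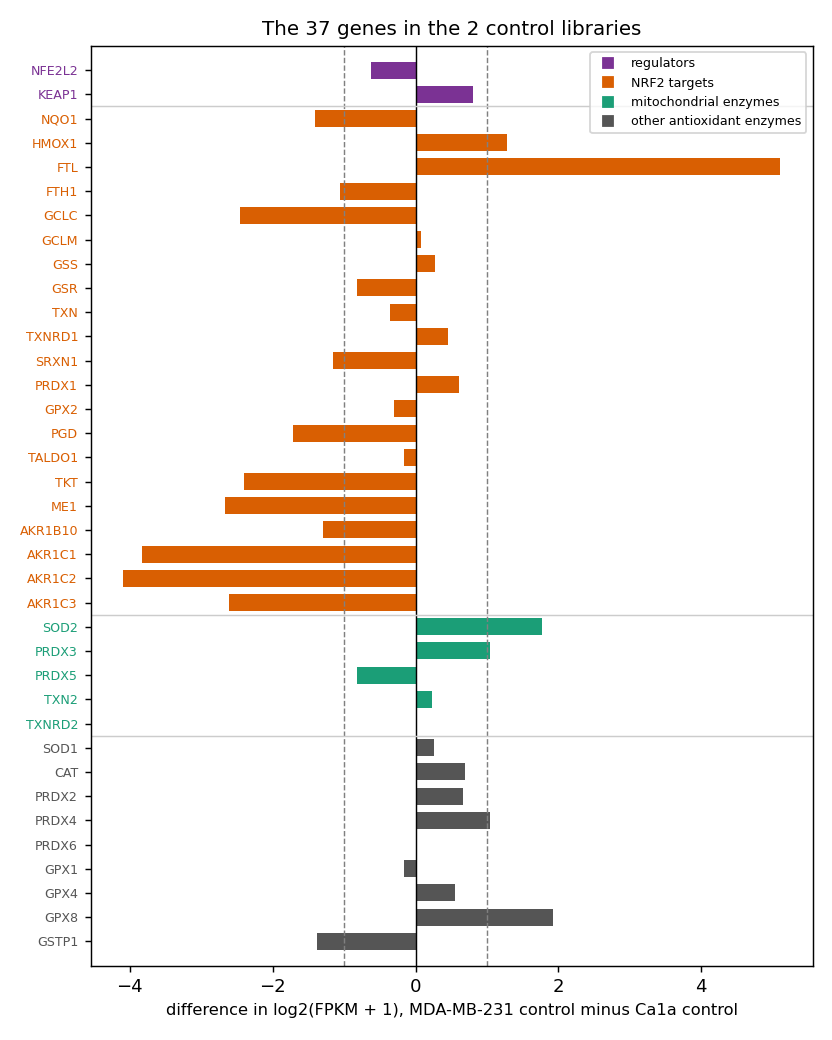
Differences in log2(FPKM + 1) between the MDA-MB-231 control and the Ca1a control, 1 bar per gene, with dashed lines at 2-fold. The bars of NRF2 targets reach from AKR1C2, lowest in MDA-MB-231, to FTL, which stands 34.6-fold higher there, whereas none of the 5 mitochondrial enzymes passes 2-fold on the lower side.

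On the log2(FPKM + 1) scale the widest gap of the 37 genes was in ferritin, the shell that stores iron, built of a light chain (FTL) that helps the iron core form and a heavy chain (FTH1) that oxidises iron. FTL stood at 3668 FPKM in the MDA-MB-231 control and 106 FPKM in the Ca1a control, 34.6-fold higher. FTH1 went the other way, at 508 and 1056 FPKM, 2.08-fold lower in the MDA-MB-231 control. The 2 chains therefore had opposite ratios: FTL exceeded FTH1 by 7.23 times in FPKM in the MDA-MB-231 control, and FTH1 exceeded FTL by 9.95 times in the Ca1a control. FTL lies at chr19:48965301-48966878 and FTH1 at chr11:61959718-61967660 (GENCODE release 29, GRCh38). The deposited tables list 8 FTL pseudogenes, whose reads can be shared with the gene, and they had 4200 normalized counts in the MDA-MB-231 control and 112 in the Ca1a control, tables that were normalized separately. HMOX1, which frees iron from heme, was the other target that was higher in the MDA-MB-231 control, at 13.3 FPKM against 4.90 FPKM in the Ca1a control (2.72-fold).

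The aldo-keto reductases, which reduce aldehydes, ketones and steroids with NADPH, were low in MDA-MB-231. AKR1C1 stood at 0.573 FPKM in the MDA-MB-231 control and 21.3 FPKM in the Ca1a control, 37.2-fold lower. AKR1C3, which also makes active androgens and oestrogens, stood at 1.14 and 12.1 FPKM, 10.6-fold lower. AKR1C2 stood at 0.0357 and 16.6 FPKM and AKR1B10 at 0.0549 and 1.59 FPKM, and their MDA-MB-231 values rest on 4.02 and 5.03 normalized counts. All 4 were at least 2-fold lower in the MDA-MB-231 control, against 11.3% of all genes compared. Of these, AKR1B10, AKR1C1 and AKR1C2 passed the filter of 1 FPKM through the Ca1a control only, which fixed their direction.

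AKR1C1 and AKR1C2 are nearly the same gene in sequence, which limits how well reads can be assigned between them. Their coding sequences, without the stop codon, differ at 19 of 969 bases, so that 98.0% are identical, and AKR1C3 is 91.4% identical to AKR1C1 and 91.0% to AKR1C2. The first 60 coding bases from GENCODE transcripts are shown as an example, with the single base that differs in capitals.
AKR1C1: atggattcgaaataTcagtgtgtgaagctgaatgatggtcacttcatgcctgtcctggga
AKR1C2: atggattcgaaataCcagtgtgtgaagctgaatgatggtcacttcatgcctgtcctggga
AKR1C1 lies at chr10:4963253-4983283 on the plus strand, AKR1C2 at chr10:4987400-5018031 on the minus strand and AKR1C3 at chr10:5035354-5107686 on the plus strand. Values of the first 2 genes are therefore uncertain one against the other, and their summed counts are given in the knockdown and overexpression comparisons.

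Among the enzymes that supply NADPH, the electron donor of both thiol systems, 3 of 4 were lower in the MDA-MB-231 control. ME1, cytosolic malic enzyme, stood at 6.56 FPKM in the MDA-MB-231 control and 46.9 FPKM in the Ca1a control (7.14-fold lower). TKT, transketolase of the pentose phosphate pathway, stood at 113 and 603 FPKM (5.33-fold lower), and PGD, the decarboxylating dehydrogenase of its oxidative arm, at 38.0 and 128 FPKM (3.36-fold lower). TALDO1, transaldolase, was close in both, at 139 and 155 FPKM. Glutathione genes were split in the same way. GCLC, the catalytic subunit of glutamate-cysteine ligase, stood at 7.56 and 46.0 FPKM (6.08-fold lower), whereas its modifier subunit GCLM stood at 14.0 and 13.2 FPKM and glutathione synthetase GSS at 33.1 and 27.1 FPKM. GSR, which reduces oxidised glutathione, stood at 16.6 and 29.9 FPKM, inside 2-fold.

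Of the 4 cytosolic thioredoxin genes, SRXN1 passed 2-fold between the lines and the other 3 did not. TXN, thioredoxin itself, stood at 356 FPKM in the MDA-MB-231 control and 457 FPKM in the Ca1a control, and its reductase TXNRD1 at 147 and 107 FPKM. PRDX1, a cytosolic peroxiredoxin, stood at 202 and 132 FPKM. SRXN1, which repairs overoxidised peroxiredoxins, was 2.27-fold lower (43.2 and 97.8 FPKM), as was the quinone reductase NQO1 at 2.68-fold (53.1 and 142 FPKM). GPX2, an epithelial glutathione peroxidase, was listed at 0 in both MDA-MB-231 libraries and had 0.232 FPKM in the Ca1a control. NFE2L2 stood at 39.2 and 60.8 FPKM and KEAP1 at 26.4 and 14.7 FPKM, both inside 2-fold.

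In mitochondria the order of levels differed by gene. SOD2 stood at 69.4 FPKM in the MDA-MB-231 control and 19.7 FPKM in the Ca1a control, 3.52-fold higher, and PRDX3 at 167 and 80.4 FPKM, 2.08-fold higher. PRDX5, which also occurs in peroxisomes and cytosol, ran the other way at 163 and 290 FPKM. The electron donors did not follow either pattern, with TXN2 at 27.9 and 23.5 FPKM and TXNRD2, the mitochondrial thioredoxin reductase, at 5.59 and 5.47 FPKM. In both controls TXNRD2 was the lowest of the 5 enzymes per transcript length. The highest was PRDX3 in the MDA-MB-231 control, just above PRDX5, and PRDX5 in the Ca1a control. When FPKM were scaled to the same median over genes expressed in both controls, all MDA-MB-231 values shifted by -0.21 on the log2 scale, PRDX3 and PRDX4 no longer passed 2-fold, and GSR and PRDX5 passed it on the lower side.

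Of the other antioxidant enzymes 2 of 9 were higher in the MDA-MB-231 control and 1 lower, against 21.7% and 11.3% of all genes compared. The 2 that were higher, GPX8 and PRDX4, belong to the endoplasmic reticulum, and PRDX4 no longer passed 2-fold with FPKM scaled to the same median. GPX8, a membrane-bound peroxidase, stood at 14.7 FPKM in the MDA-MB-231 control and 3.16 FPKM in the Ca1a control (4.66-fold higher), and PRDX4, a secretory-pathway peroxiredoxin, at 77.4 and 36.9 FPKM (2.10-fold higher). GSTP1, a glutathione transferase, was the only one lower, at 249 and 650 FPKM (2.61-fold). SOD1, CAT, PRDX2, PRDX6, GPX1 and GPX4 were within 2-fold, and PRDX6 was all but equal at 134 and 133 FPKM.

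**Figure D2:**
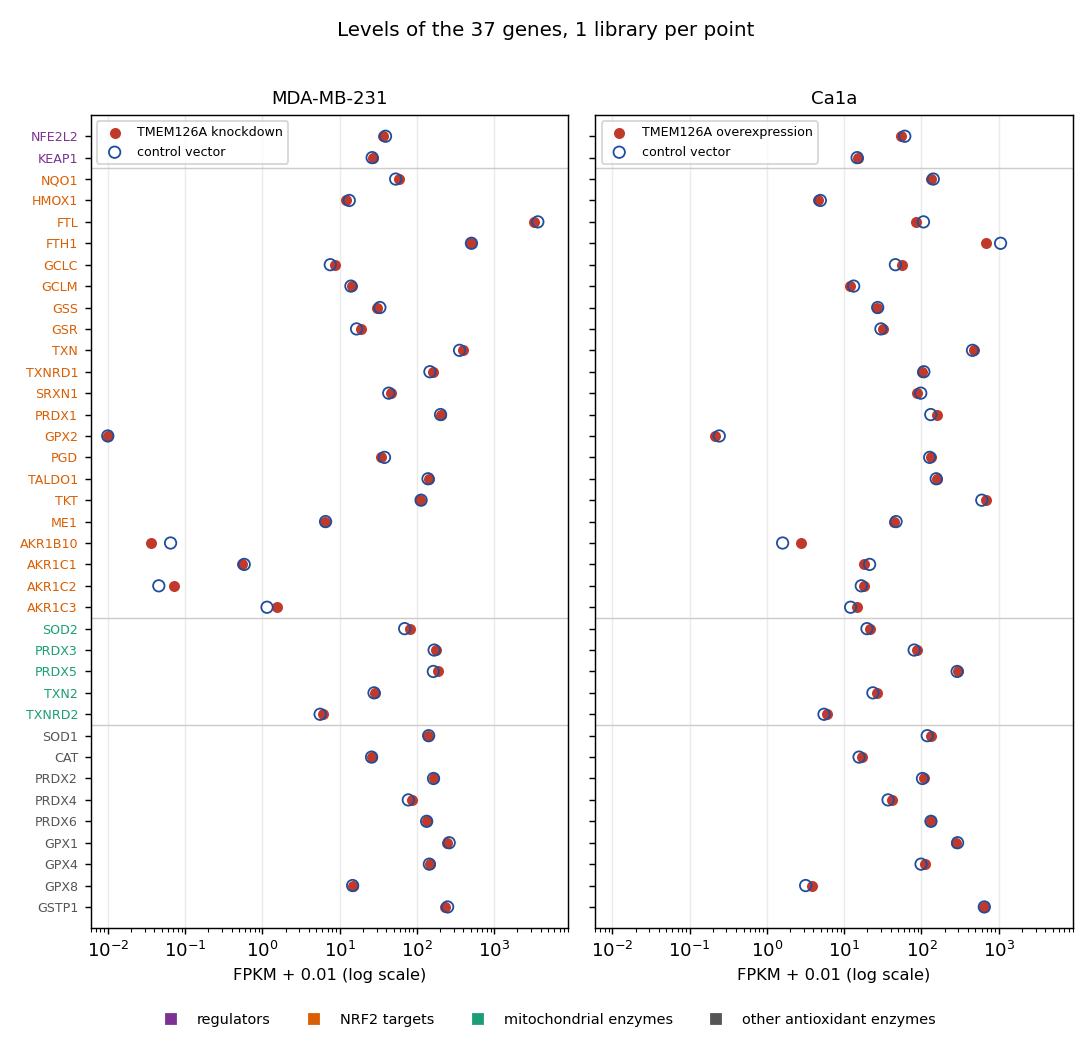
FPKM of the 37 genes in each library on a log axis (0.01 added so that a value listed at 0 can be drawn), with MDA-MB-231 on the left and Ca1a on the right. Within a line the 2 points nearly cover each other for most genes, and FTH1 in Ca1a, at 691 FPKM with overexpression and 1056 FPKM in the control, is one of the few visible gaps.

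The knockdown comparison asked what differed when TMEM126A was lowered in MDA-MB-231. The cytosolic thioredoxin reductase TXNRD1, the glutathione reductase GSR and 3 mitochondrial enzymes were slightly higher in the knockdown library, by 1.06-fold to 1.17-fold. FTL, PGD, GSTP1 and NFE2L2 itself were slightly lower. Of the 37 genes 34 had a mean of at least 20 normalized counts. By a rule that the 95% counting interval of the ratio leaves out 1, 10 of the 34 were higher, 4 were lower and 20 were within. Over all 13292 genes tested, 16.8% were higher and 11.3% lower. The genes are abundant, which narrows intervals: with a mean of at least 1000, 9 of 28 were higher and 4 lower, against 25.3% and 16.2% of 5446 genes. None of the 34 reached 1.2-fold with such an interval, against 5.33% of all tested genes higher and 3.39% lower, and none reached 1.5-fold (1.44% and 0.775%). Among genes with a mean of at least 1000 the shares were 2.66% higher and 1.43% lower at 1.2-fold, and 0.0551% and 0.0367% at 1.5-fold. Intervals cover counting error only, and any difference between cultures unrelated to TMEM126A is not in them.

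Among the NRF2 targets measured in the knockdown comparison, 6 of 18 were higher, 2 lower and 10 within, with a median log2 ratio of 0.05 beside 0.01 over all genes tested. Over all tested genes 16.8% were higher and 11.3% lower. With a mean of at least 1000, 5 of 13 targets were higher and 2 lower, against 25.3% and 16.2% of all genes at that level. The thioredoxin group contributed 3 of the 6 targets called higher. TXN had 7079 normalized counts with knockdown and 6333 with control vector, a ratio of 1.12 (1.08 to 1.16). TXNRD1 had 18899 and 17097, a ratio of 1.11 (1.08 to 1.13). SRXN1 had 2979 and 2775, a ratio of 1.07 (1.02 to 1.13), a call that was lost when libraries were scaled by total reads. PRDX1, a substrate of SRXN1, was within counting error at 6814 and 6596 counts (1.03, 0.999 to 1.07).

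In glutathione metabolism the catalytic subunit and the reductase were higher while the modifier subunit and the synthetase were within counting error. GCLC had 899 normalized counts with knockdown and 785 with control vector (1.15, 1.04 to 1.26), and GSR had 1385 and 1219 (1.14, 1.05 to 1.23). GCLM had 1895 and 1822 counts. GSS had 2925 and 3061 counts, within counting error as reported but lower under each of the other 3 scalings. NQO1 was also called higher, with 4047 and 3608 counts (1.12, 1.07 to 1.17).

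Iron and NADPH genes were lower or within counting error. FTL had 58569 normalized counts with knockdown and 63618 with control vector, 1.09-fold lower (1.07 to 1.10), and its pseudogenes together had 3849 and 4200 counts, a ratio of 0.916 (0.877 to 0.958). FTH1 had 15324 and 15350 counts, a ratio of 0.998 (0.976 to 1.02), which became lower when libraries were scaled by total reads. HMOX1 had 424 and 452 counts (0.939, 0.821 to 1.07), which spans 1. PGD was 1.09-fold lower (1.03 to 1.15) with 2307 and 2504 counts, whereas TALDO1, TKT and ME1 were within counting error. Of the aldo-keto reductases only AKR1C1 and AKR1C3 passed the filter, at 21.9 and 24.1 counts for AKR1C1 and 97.4 and 77.5 for AKR1C3, and both intervals span 1. The sum of AKR1C1 and AKR1C2 was 29.8 and 28.2 counts (1.06, 0.611 to 1.84). AKR1B10, AKR1C2 and GPX2 were too low to be compared. GPX2 was listed at 0 in both libraries.

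The mitochondrial enzymes had 3 of 5 members higher in the knockdown library, 0 lower and a median log2 ratio of 0.11. Over all tested genes 16.8% were higher and 11.3% lower, with a median of 0.01. With a mean of at least 1000, 3 of 4 were higher, against 25.3% of all genes at that level. SOD2 (chr6:159669057-159745186, minus strand) had 4173 normalized counts with knockdown and 3579 with control vector, a ratio of 1.17 (1.11 to 1.22). PRDX5 (chr11:64318088-64321811, plus strand) had 3146 and 2714 counts, a ratio of 1.16 (1.10 to 1.22). These are the largest ratios of the 37 genes among those beyond counting error. PRDX3 had 6361 and 6009 counts (1.06, 1.02 to 1.10), a call that was lost with scaling by total reads. TXN2 had 1565 and 1494 counts (1.05, 0.975 to 1.13) and TXNRD2 had 490 and 453 (1.08, 0.950 to 1.23), so neither was told apart from 1.

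NFE2L2 (chr2:177227595-177392697, minus strand) had 3241 normalized counts with knockdown and 3495 with control vector, 1.08-fold lower (1.03 to 1.13). KEAP1 had 1890 and 1814 counts (1.04, 0.976 to 1.11). Among the other enzymes PRDX4 was higher at 2804 and 2538 counts (1.10, 1.05 to 1.17) and GSTP1 1.06-fold lower (1.02 to 1.11), with the remaining 7 within counting error. GPX8 and PRDX4, both of the endoplasmic reticulum, had ratios of 1.06 (0.991 to 1.13) and 1.10. GPX1, the abundant cytosolic glutathione peroxidase, had 4825 and 4964 counts, which became lower with scaling by total reads, and GPX4, which reduces lipid peroxides, had 6741 and 6587.

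**Figure D3:**
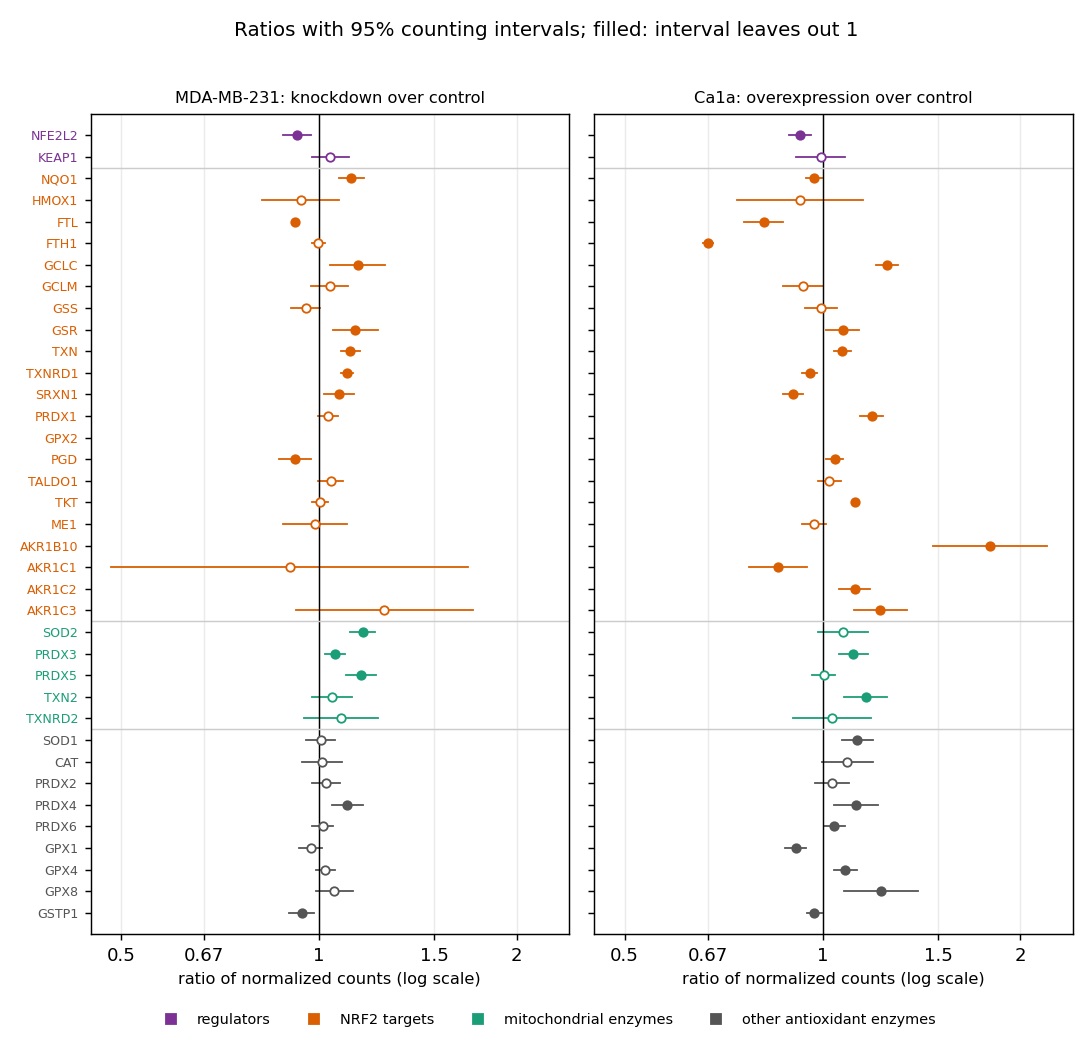
Ratios of normalized counts with 95% counting intervals, knockdown over control on the left and overexpression over control on the right, on a log axis. Filled points mark intervals that leave out 1; AKR1B10 and FTH1 in Ca1a lie farthest from 1, and genes with a mean below 20 counts are left blank.

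The overexpression comparison asked what differed when TMEM126A was raised in Ca1a. Both ferritin chains were lower in the overexpression library, as were NQO1, TXNRD1, SRXN1 and AKR1C1 to a smaller extent. GCLC and the aldo-keto reductases AKR1B10, AKR1C2 and AKR1C3 were higher. Peroxide-removing enzymes were split. PRDX1, PRDX3, PRDX4, PRDX6, GPX4 and GPX8 were higher, GPX1 was lower, and PRDX2, PRDX5 and CAT were within counting error. Of the 37 genes 36 passed the filter, all but GPX2, and 16 were higher, 9 lower and 11 within counting error. Over all 12111 genes tested, 18.1% were higher and 16.2% lower. With a mean of at least 1000 the counts were 13 of 30 higher and 8 lower, against 26.2% and 23.7% of 4831 genes. Past 1.2-fold, 4 of 36 were higher and 2 lower, against 5.76% and 5.94% of all tested genes. Past 1.5-fold AKR1B10 was higher (background 1.27%) and none was lower (1.37%). With a mean of at least 1000, GCLC alone was higher past 1.2-fold (2.84%), and FTL and FTH1 were lower (3.75%), while none of the 30 reached 1.5-fold (0.103% higher and 0.228% lower).

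FTH1 had 22103 normalized counts with overexpression and 33024 with control vector, 1.49-fold lower (1.47 to 1.52). FTL had 1530 and 1880 counts, 1.23-fold lower (1.15 to 1.32). Both ferritin chains were thus lower, and FTH1 more so, which brought the FPKM ratio of FTH1 over FTL to 8.06 in the overexpression library, against 9.95 in the control. The 18 FTH1 pseudogenes listed had 4484 counts with overexpression and 4637 with control vector, a ratio of 0.967 (0.928 to 1.01). The FTL pseudogenes together had 107 and 112 counts, a ratio of 0.955 (0.726 to 1.26), which spans 1. Of the exonic bases of FTH1 62.4% are shared with BEST1 on the opposite strand, which had 6 and 7 counts. The part of shared reads in the FTH1 and FTL differences was not tested. HMOX1 had 160 and 173 counts (0.925, 0.741 to 1.15) and NQO1 9488 and 9786, 1.03-fold lower (1.003 to 1.06).

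The aldo-keto reductases, measurable in Ca1a, did not move as a block. AKR1B10 (chr7:134527592-134541408, plus strand) had 280 normalized counts with overexpression and 156 with control vector, a ratio of 1.79 (1.47 to 2.20), the farthest from 1 of the 36 genes measured. AKR1C3 had 1015 and 829 counts (1.22, 1.12 to 1.34). AKR1C2 had 2849 and 2544 counts (1.12, 1.06 to 1.18), whereas AKR1C1 had 715 and 835, 1.17-fold lower (1.06 to 1.29). Summed, the near-identical pair AKR1C1 and AKR1C2 had 3564 and 3379 counts, a ratio of 1.05 (1.01 to 1.11).

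In glutathione metabolism GCLC was again called higher and its partner GCLM was not. GCLC (chr6:53497341-53616970, minus strand) had 6014 normalized counts with overexpression and 4797 with control vector, a ratio of 1.25 (1.21 to 1.302). GCLM had 1562 and 1672 counts (0.934, 0.871 to 1.002), which was within counting error and became lower under each of the other 3 scalings. GSR had 2356 and 2196 counts (1.07, 1.01 to 1.14), and GSS 2504 and 2514. NADPH enzymes were level or slightly higher: TKT had 61053 and 54453 counts (1.12, 1.11 to 1.13) and PGD 9129 and 8750 (1.04, 1.01 to 1.07), while TALDO1 and ME1 were within counting error.

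The cytosolic thioredoxin genes split in the overexpression comparison. TXN had 8905 normalized counts with overexpression and 8307 with control vector (1.07, 1.04 to 1.11), and PRDX1 had 5118 and 4306 (1.19, 1.14 to 1.24). TXNRD1 had 11914 and 12463 counts, 1.05-fold lower (1.02 to 1.07), and SRXN1 had 5778 and 6407, 1.11-fold lower (1.07 to 1.15). The reductase and the repair enzyme were therefore lower while thioredoxin and its client peroxidase were higher. In all, NRF2 targets had 9 of 20 higher, 6 lower and 5 within, with a median log2 ratio of 0.01, beside 0.01 over all genes tested. Over all tested genes 18.1% were higher and 16.2% lower. With a mean of at least 1000, 7 of 16 targets were higher and 5 lower, against 26.2% and 23.7% of all genes at that level.

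The mitochondrial enzymes had 2 of 5 members higher in the overexpression library, 0 lower and a median log2 ratio of 0.10. Over all tested genes 18.1% were higher and 16.2% lower, with a median of 0.01. With a mean of at least 1000, 2 of 4 were higher, against 26.2% of all genes at that level. PRDX3 had 3182 normalized counts with overexpression and 2857 with control vector (1.11, 1.06 to 1.17), and TXN2 had 1473 and 1266 (1.16, 1.08 to 1.26). SOD2, with the largest ratio in the knockdown comparison among these 5, had 1090 and 1015 counts here (1.07, 0.985 to 1.17), and PRDX5 had 5038 and 5020 (1.004, 0.965 to 1.04). TXNRD2 had 433 and 419 counts (1.03, 0.901 to 1.18). The enzymes beyond counting error were thus SOD2, PRDX3 and PRDX5 in one comparison and PRDX3 and TXN2 in the other, and the difference between the 2 comparisons was not tested.

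Of the 9 other antioxidant enzymes 5 were higher in the overexpression library, 2 lower and 2 within, with a median log2 ratio of 0.12. Over all tested genes 18.1% were higher and 16.2% lower, and among those with a mean of at least 1000 the shares were 26.2% and 23.7%. GPX8 had 529 normalized counts with overexpression and 431 with control vector (1.23, 1.08 to 1.40), PRDX4 had 1405 and 1250 (1.12, 1.04 to 1.21) and SOD1, the cytosolic superoxide dismutase, 2898 and 2564 (1.13, 1.07 to 1.19). GPX4 had 5198 and 4796 counts (1.08, 1.04 to 1.13). PRDX6 had 5857 and 5624 (1.04, 1.004 to 1.08), a call lost with 2 of the other scalings. GPX1 went the other way with 5362 and 5893 counts, 1.10-fold lower (1.06 to 1.14), and GSTP1 with 11756 and 12092, 1.03-fold lower (1.003 to 1.06). CAT, the peroxisomal catalase, and PRDX2 were within counting error. NFE2L2 had 5023 counts with overexpression and 5440 with control vector, 1.08-fold lower (1.04 to 1.13), and KEAP1 had 1063 and 1070.

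The 2 comparisons share no library, so their ratios can be set side by side for the 34 genes measured in both. NQO1, TXNRD1 and SRXN1 were higher with knockdown and lower with overexpression, and PGD was lower with knockdown and higher with overexpression. NFE2L2, FTL and GSTP1 were lower in both, and GCLC, GSR, TXN, PRDX3 and PRDX4 were higher in both. Of all 11349 genes tested in both, 3.37% were higher with knockdown and lower with overexpression, 2.14% the reverse, 2.79% lower in both and 4.32% higher in both. With a mean of at least 1000 in both comparisons, 3 of 27 genes took the first pattern, against 6.41% of 4011 genes, 1 the second (3.62%), 3 the third (5.19%) and 4 the fourth (7.95%). Across the 34 genes the log2 ratios had a Pearson correlation of 0.49 (Spearman 0.46), and 0.30 (Spearman 0.24) across the 27 with a mean of at least 1000. The values were -0.01 (Spearman 0.04) across all 11349 genes and 0.05 (Spearman 0.07) across the 4011 with a mean of at least 1000. These are correlations across genes within 4 libraries and have no replicate error. AKR1C3, with the largest knockdown log2 ratio of the 34 (0.33), was not told apart from a ratio of 1 there (0.923 to 1.72).

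**Figure D4:**
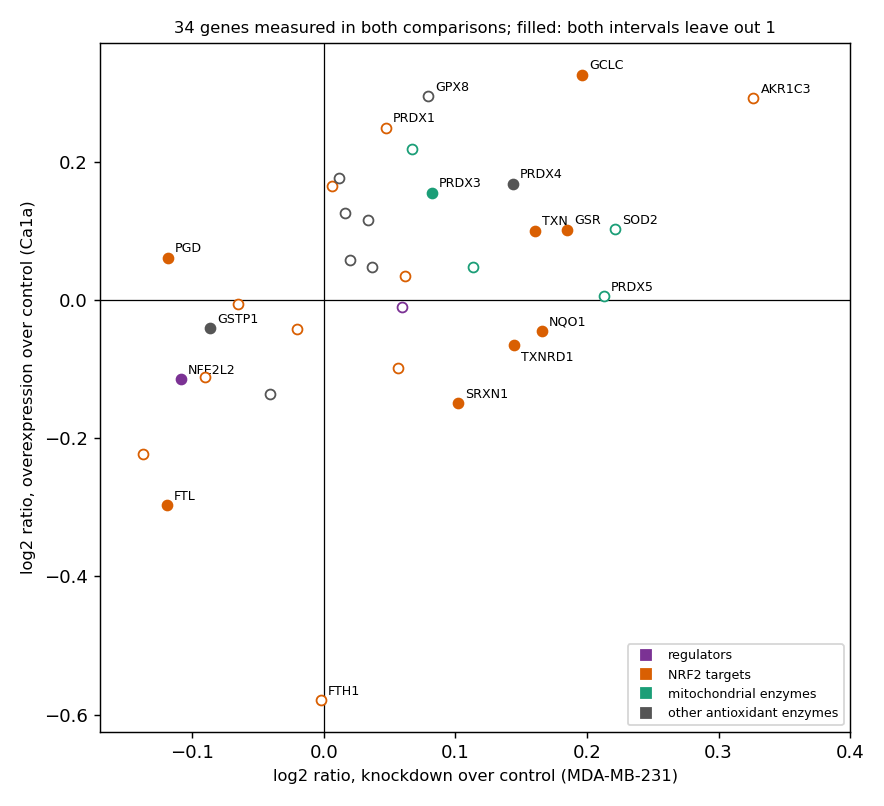
Log2 ratios of the 34 genes measured in both comparisons, knockdown over control on the horizontal axis and overexpression over control on the vertical axis. Filled points have both intervals leaving out 1: SRXN1, TXNRD1 and NQO1 lie at lower right, PGD at upper left, and FTH1 lies lowest with a knockdown ratio of 0.998.

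Of the 5 genes whose promoter windows held the element letters printed above, none showed the same kind of difference as all the others. TXNRD1 was higher with knockdown and lower with overexpression, GSTP1 was lower in both, GCLM and KEAP1 were within counting error in both, and GPX2 was too low to be compared.

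A wider list of 27 further NRF2 targets was read in the same way. In the knockdown comparison 7 of 23 measured genes were higher, 2 lower and 14 within, with a median log2 ratio of 0.09. Over all tested genes 16.8% were higher and 11.3% lower. SLC7A11, the cystine carrier that feeds glutathione synthesis, had 2309 normalized counts with knockdown and 3419 with control vector, 1.48-fold lower (1.40 to 1.56). The epoxide hydrolase gene EPHX1 was 1.36-fold higher (1.23 to 1.51) and ABHD4, a lipid hydrolase gene, 1.22-fold higher (1.13 to 1.31). In the overexpression comparison 4 of 24 were higher, 5 lower and 15 within, with a median of -0.06, against 18.1% of all tested genes higher and 16.2% lower. ABCC2, an export pump for glutathione conjugates, had 846 counts with overexpression and 609 with control vector (1.39, 1.25 to 1.54), and the prostaglandin reductase gene PTGR1 was 1.21-fold lower (1.05 to 1.40). Between the controls 10 of 25 were lower in MDA-MB-231, 4 higher and 11 within, against 11.3% of all genes compared lower and 21.7% higher. Some genes on each side passed the FPKM filter only through the control where they were high. ABCC3, another export pump, stood at 14.1 FPKM in the MDA-MB-231 control and 76.8 FPKM in the Ca1a control. PIR stood at 2.53 and 41.7 FPKM but had only 14.1 and 144 counts, so its counts and FPKM do not match as they do for the 37 genes and it is uncertain. GSTM3 stood at 11.04 FPKM in the MDA-MB-231 control and was listed at 0 in both Ca1a libraries.

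Of 11 genes that control NRF2, 3 were higher in the knockdown comparison, 0 lower and 8 within, against 16.8% of all tested genes higher and 11.3% lower. CUL3, the scaffold of the ligase, was 1.09-fold higher (1.02 to 1.16) and SQSTM1, which captures KEAP1 for autophagy, 1.07-fold higher (1.05 to 1.09). In the overexpression comparison 2 of 11 were higher and 4 lower, against 18.1% and 16.2% of all tested genes. RBX1, the ring subunit of the ligase, had 411 normalized counts with overexpression and 297 with control vector (1.38, 1.19 to 1.61), and the NRF2 partners MAFG and MAFK had ratios of 0.841 (0.790 to 0.896) and 0.886 (0.832 to 0.944). Of 10 further mitochondrial redox genes 0 were called in the knockdown comparison, with a median log2 ratio of 0.00. With overexpression 3 were higher and 1 lower, beside 18.1% and 16.2% of all tested genes. Those higher included SLC25A40, a carrier linked to mitochondrial glutathione, at 520 and 427 counts (1.22, 1.07 to 1.39), and GLRX5, a mitochondrial glutaredoxin of iron-sulphur cluster assembly, at 764 and 670 counts (1.14, 1.03 to 1.27).

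The authors' deposited table gives p-values without replicates. In the authors' deposited table of the knockdown comparison none of the 36 members with a value had an adjusted p under 0.05, and the lowest p was 0.0577, for SOD2. In the authors' deposited table of the overexpression comparison 4 of 37 members had a p under 0.05 and 0 an adjusted p under 0.05. The authors' deposited table gave the lowest as AKR1B10 (p = 0.000495, adjusted p = 0.166) and FTH1 (p = 0.00155, adjusted p = 0.327), followed by GCLC (p = 0.0242) and FTL (p = 0.0475).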

How the data were processed

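The submitters' processing notes name HISAT2, Cufflinks, HTSeq and DESeq with GRCh38.p5 and hg38. They give no version, role or strand setting. The deposited Ca1a columns are DESeq base means, per the file headers, and hold whole-number read counts, so their size factor was 1. The deposited MDA-MB-231 base means are a signal, reads over a size factor, and 100% of them were whole multiples of the smallest (tolerance 1e-06), which served as reads. The deposited FPKM have no stated denominator. The authors' log2 fold changes and p-values were copied as deposited.

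Ratios are treated over control with exact conditional binomial intervals at 95%, which cover counting error only, since reads without molecular identifiers are not independent molecules. Conditions could not be tested against each other, since each has 1 library. Lists were described by counts and by medians of log2(value + 1) differences over genes whose mean reached 20 normalized counts. Controls were compared on log2(FPKM + 1). Positions and exon overlaps come from GENCODE release 29 by Entrez ID, and promoters from RefSeq by symbol. Without a known strand setting, reads of genes overlapping on opposite strands cannot be told apart.

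The members, classes and lists were chosen with earlier results of these data known. All members could be named, and up to 3 genes per further list and comparison by absolute log2 ratio at a mean of at least 100. Calls were also run on counts simulated with counting error only. Those counts hold no variation between cultures, so the run cannot speak to replicate error. Alternatives were other scalings, filters, pseudocounts, thresholds and FPKM. Tools were R 4.3.3 (edgeR 4.0.16, TMM factors) and python 3.11.15 (scipy 1.17.1, pandas 2.3.3, numpy 2.4.6, matplotlib 3.10.9).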

Additional observations from a re-analysis of the deposited data

How the results depend on the processing

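Most ratios are small, so the size required decides the counts. In the knockdown comparison 10 higher and 4 lower members became 0 and 0 at 1.2-fold, and 0 and 0 at 1.5-fold. In the overexpression comparison 16 higher and 9 lower became 4 and 2 at 1.2-fold, and 1 and 0 at 1.5-fold. Scaling by total reads shifted the knockdown ratios by -0.03 on the log2 scale and gave 7 lower members. Between the controls 6 higher members became 10 at 1.5-fold and 3 at 3-fold, and 12 lower became 7 at 3-fold. The other counts stayed within 1.5 times of those reported, and class medians moved by less than the median half-width of their members' intervals, under each alternative run (scaling, pseudocount, filter, FPKM, 99% interval and the mean in place of the median). Over single genes no called ratio changed direction under another scaling, pseudocount, filter or FPKM, while other scalings changed the call of 7 genes. In the knockdown comparison GSS became lower under all 3 and FTH1 and GPX1 under total reads, which also ended the calls of SRXN1 and PRDX3. In the overexpression comparison GCLM became lower under all 3, and PRDX6 lost its call under the median ratio and TMM. At this depth AKR1B10, AKR1C2 and GPX2 could not be compared in MDA-MB-231. No paired analysis was possible because each group holds 1 library, and for the same reason no replicate could be left out.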
